A study of Mus musculus with 24 samples.

Results

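The serpin genes of 4T1-T cells were taken as every row of the count table whose symbol begins with Serpin, a clade letter from a to i and a number. The rule found 63 genes among 23478 symbols, and all 63 were matched to a GENCODE M21 gene. Of these, 25 were expressed, with 10 or more counts in 4 or more libraries, and the same 25 passed the count filter of the test. The libraries come from 4T1-T, a clonal line of the mouse mammary carcinoma 4T1. All cells carried an shRNA, came from a primary tumor or from lung metastases, and were selected with 6-thioguanine (6TG, to which the cancer cells are resistant) and cultured in DMEM supplemented with non-essential amino acids. The hairpins were shAsns-1 and shAsns-2, both directed at Asns (asparagine synthetase), and the control shRenilla, directed at a luciferase gene that mouse cells lack. Site and hairpin give 6 groups: tumor shRenilla, tumor shAsns-1, tumor shAsns-2, lung shRenilla, lung shAsns-1 and lung shAsns-2, each with 4 libraries A to D. The labels give neither the strain or age of the host mice nor whether libraries are separate mice, so p-values measure the spread between libraries, which may be technical. These are bulk libraries, in which fewer cells of a type and less RNA per cell cannot be told apart.

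Serpins share a fold in which an exposed loop acts as bait for a protease. When the protease cuts the loop, the serpin changes shape and traps the enzyme in a covalent complex, so each molecule is used once. Clade e members act mainly on the plasminogen activators and thrombin outside the cell, and most clade b members stay inside the cell and neutralise granzymes, cathepsins and neutrophil proteases. Some members have lost inhibition and serve as chaperones, hormone carriers or signalling proteins. In earlier work on 4T1 clones, Serpine2 was linked to vascular mimicry and to entry into the circulation.

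Total counts per library ran from 8.48 M to 38.0 M. The first principal component held 38.8% of the variance in log2 CPM (gene counts scaled to library size, the unit of all levels here), and on it tumor shAsns-1 libraries had scores of -21.6 to -14.3, apart from the other tumor libraries at 32.4 to 43.7 and within the span of the lung libraries at -26.95 to 0.199. Library B of lung shRenilla and library D of lung shAsns-2 lay farthest from the other 3 libraries of their groups, at root mean square log2 distances of 0.597 and 0.554 against 0.251 to 0.451 for the other libraries. Asns, the target, was at 61.7 to 100.2 CPM in tumor shRenilla, 26.2 to 48.3 in tumor shAsns-2 and 152 to 185 in the tumor libraries labelled shAsns-1. In lung it was at 53.1 to 70.2 CPM in shRenilla, 35.8 to 51.3 in shAsns-2 and 176 to 219 in the libraries labelled shAsns-1. A rise goes against a knockdown, so those libraries are called by their label throughout. Summed over 7 epithelial genes, the level was 745 to 899 CPM in tumor shRenilla, 909.7 to 1048 in tumor shAsns-2, 455 to 611 in tumor shAsns-1 and 384 to 787 across the lung groups. Krt18 and Krt8 had the largest medians over all libraries, 255 and 192 CPM, against 4.66 to 35.2 for the other epithelial genes. Both were highest in lung shAsns-2 A, and each of the others in a library of tumor shRenilla or tumor shAsns-2. Sums for endothelial (at most 1.35 CPM), T and NK cell (at most 0.562) and alveolar genes (at most 0.154) were low in every library. Macrophage genes summed to 10.8 to 27.2 CPM and neutrophil genes to 0.598 to 10.2 CPM, both highest in lung shAsns-1 D. Most of the macrophage sum was Cd14, with a median of 13.97 CPM over all libraries. Medians were 0.115 for Csf1r, 0.787 for Lyz2 and 2.01 for Cd68. Cd14 alone was highest in lung shRenilla D.

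Several clade b members are near copies of each other, so short reads may not be assigned to 1 gene. The coding sequences of Serpinb9f and Serpinb9g were 98.7% identical over 1131 aligned bases, those of Serpinb9d, Serpinb9e and Serpinb9g 94.5 to 95.3%, and those of Serpinb1a and Serpinb1b 90.6%. The pairs Serpinb6a with Serpinb6b (86.4%) and Serpinb9 with Serpinb9b (86.0%) differ at enough places that their longest identical runs were 57 and 62 bases. Stretches of 90 coding bases from GENCODE M21 are printed in upper case where the members of a pair differ. Each was placed on the longest identical run of its pair. It shows what a read would meet there, not over the whole sequence.
Serpinb6a: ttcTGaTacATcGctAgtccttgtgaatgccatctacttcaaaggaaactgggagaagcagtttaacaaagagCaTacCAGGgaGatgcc
Serpinb6b: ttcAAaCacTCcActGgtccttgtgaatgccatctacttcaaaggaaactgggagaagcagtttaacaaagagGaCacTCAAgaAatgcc
Serpinb9: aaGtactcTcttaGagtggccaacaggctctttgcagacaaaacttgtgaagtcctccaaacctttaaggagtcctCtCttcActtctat
Serpinb9b: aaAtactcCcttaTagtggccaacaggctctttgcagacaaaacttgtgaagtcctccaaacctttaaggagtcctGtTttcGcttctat
Serpinb9e: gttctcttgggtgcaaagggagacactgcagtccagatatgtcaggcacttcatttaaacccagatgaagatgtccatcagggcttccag
Serpinb9f: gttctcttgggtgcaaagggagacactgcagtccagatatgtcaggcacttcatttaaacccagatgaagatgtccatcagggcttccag
The stretch starts at coding base 537 of Serpinb6a and 474 of Serpinb6b, where the pair differs at 14 places. It starts at base 247 of Serpinb9 and Serpinb9b, with 6 differences, and at base 124 of Serpinb9e and Serpinb9f, with 0. Among all 50-base windows of a gene's transcripts, the share that also occurs in another gene was 78.7% for Serpinb9f, 54.9% for Serpinb9g, 30.8% for Serpinb9d, 28.4% for Serpinb9e and 18.0% for Serpinb9c. It was 2.92% for Serpinb6b and below 1% for Serpinb6a, Serpinb9 and Serpinb9b. The gene that shared most was Gm11397 for Serpinb9f (63.9%) and Serpinb9g (46.0%), Serpinb9e for Serpinb9d (20.7%) and Serpinb9f for Serpinb9e (18.7%), and all shared windows of Serpinb9c were with Gm11385. Counts of Serpinb9d to Serpinb9g are therefore uncertain between these genes and Gm11397, and those of Serpinb9c between it and Gm11385, while those of Serpinb6a, Serpinb6b, Serpinb9 and Serpinb9b rest mostly on their own sequence. Outside these, Serpina3h shared 21.9% and Serpina3g 15.5%, mostly among Serpina3 genes, and Serpinb2 shared 10.4% with the overlapping gene Serpinb10. The read length and the strand setting of the counting are not given in the sources used here.

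A pair of genes made up most of the serpin RNA. Serpinb6a held 54.7% of all serpin counts and Serpine2 29.8%, and the 6 highest members together 96.7%. Per kilobase of exon, the mean level over 24 libraries was 105 CPM for Serpinb6a, an inhibitor of cathepsin G and related proteases inside the cell. It was 36.5 for Serpine2 (protease nexin 1), 19 for the collagen chaperone Serpinh1 (HSP47), 12.5 for Serpinb6b, 10.3 for Serpinb5 (maspin) and 7.41 for the granzyme B inhibitor Serpinb9. Serpinb2 (PAI-2) was at 1.89 CPM per kilobase, and 17 further members lay between 0.0824 and 1.38. By clade, 15 of 27 clade b genes were expressed, but 2 of 25 clade a genes, a clade of mostly liver-secreted plasma proteins. The 38 members below the limit held 0.09% of serpin counts. In 36 of them no library had more than 9 counts. The exceptions were Serpina9, with 50 counts in lung shAsns-2 C, and Serping1 (the complement C1 inhibitor), with 46 in lung shAsns-1 D, the library in which 7 fibroblast genes also summed highest (69.6 CPM against 15.6 to 51.2 in the others). All of the 7 but Pdgfra were highest there. Whether fibroblasts bear on that value was not tested.

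**Figure D1:**
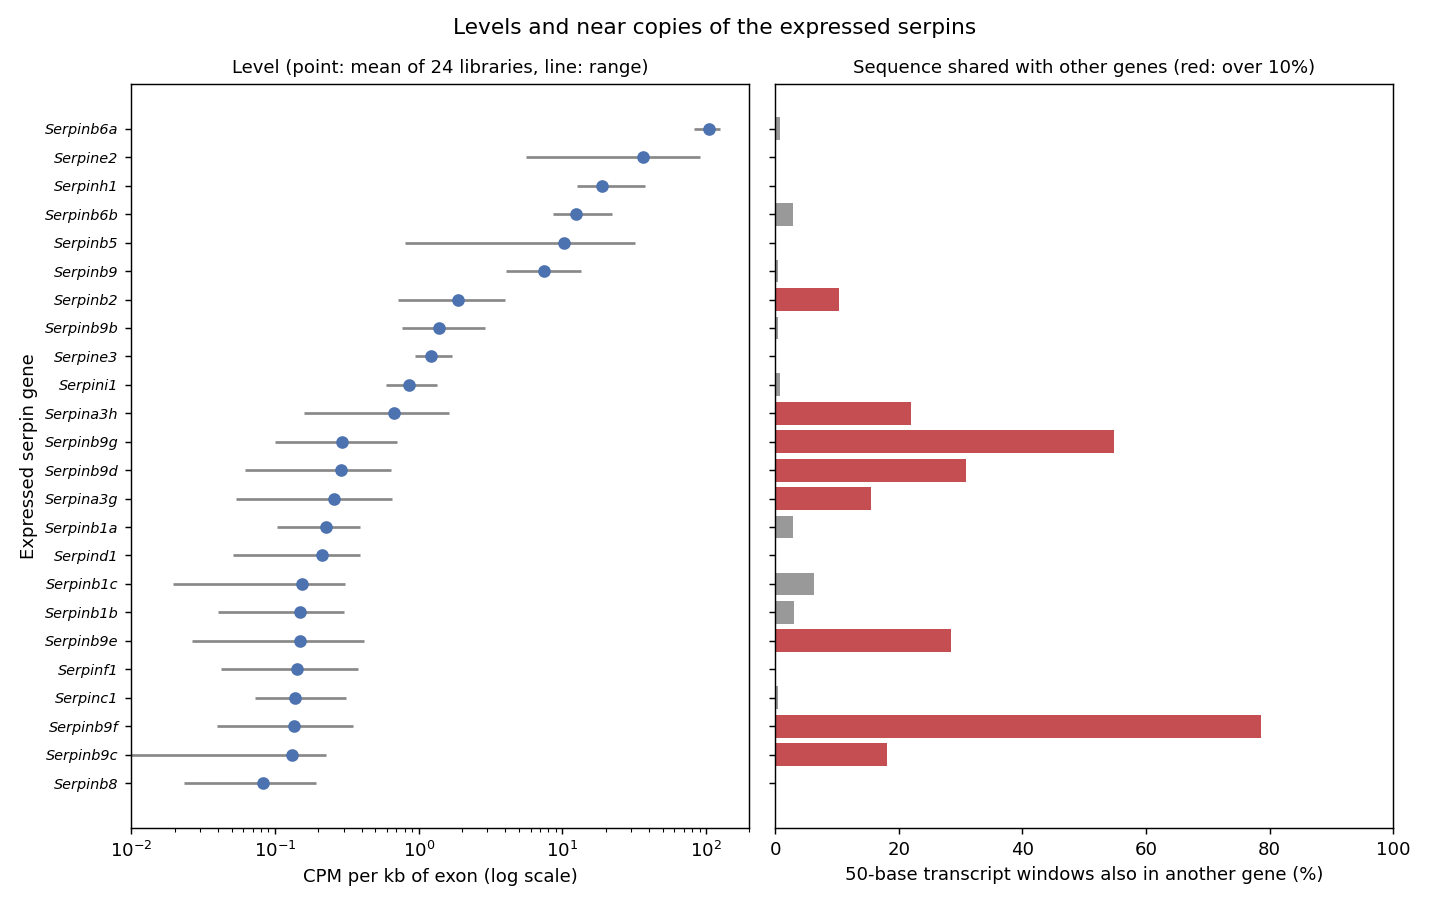
Left, mean level of 24 expressed serpins in CPM per kilobase of exon on a log axis, with a line from the lowest to the highest of 24 libraries; right, the percent of its 50-base transcript windows found in another gene, red above 10%. Serpinb6a and Serpine2 lead, Serpine2 and Serpinb5 have wide ranges among the higher members, and 8 members lie above 10%. Serpinb9c had no count in lung shAsns-2 B, which allows up to 0.0929 CPM there, and its line is drawn to the left edge.

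The main change with a hairpin label was in tumor cells. In the tumor libraries labelled shAsns-1, 14 of 25 tested serpins fell against tumor shRenilla and 1 rose, by edgeR's quasi-likelihood test at a Benjamini-Hochberg adjusted p under 0.05. Over all 12625 genes, 17.7% were called lower and 16.2% higher in that comparison. The median log2 fold change was -0.99 over the tested serpins and -0.01 over all genes. Serpins that fell included Serpinb5, Serpinb9, Serpinb6b and Serpinb2, and the 1 that rose was Serpine2. The 7 called genes among 13 tested intracellular clade b members all fell, as did both tested Serpina3 genes. Of these 7, and of the 14 serpins in all, 4 are the near copies Serpinb9d to Serpinb9g, which cannot be counted as 4 separate genes. Serpinb9e among them passed the expression limit only with the tumor shRenilla libraries counted. The epithelial sum was lower in the same libraries, as given above, and its part in these results was not tested.

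Against tumor shAsns-2, the same libraries labelled shAsns-1 had 11 serpins lower and 1 higher of 25, where 15.0% of all genes were lower and 12.1% higher. These comparisons share the shAsns-1 libraries, so their calls are not independent of each other. In tumor shAsns-2 against tumor shRenilla, 2 serpins fell and 0 rose of 25, where 0.0238% of all genes, 3 in number, fell and 0.0396%, 5 in number, rose. The 2 were Serpinb9 and its chromosome 13 neighbour Serpinb6b, so they are 2 of the 3 genes called lower, beside Asns.

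**Figure D2:**
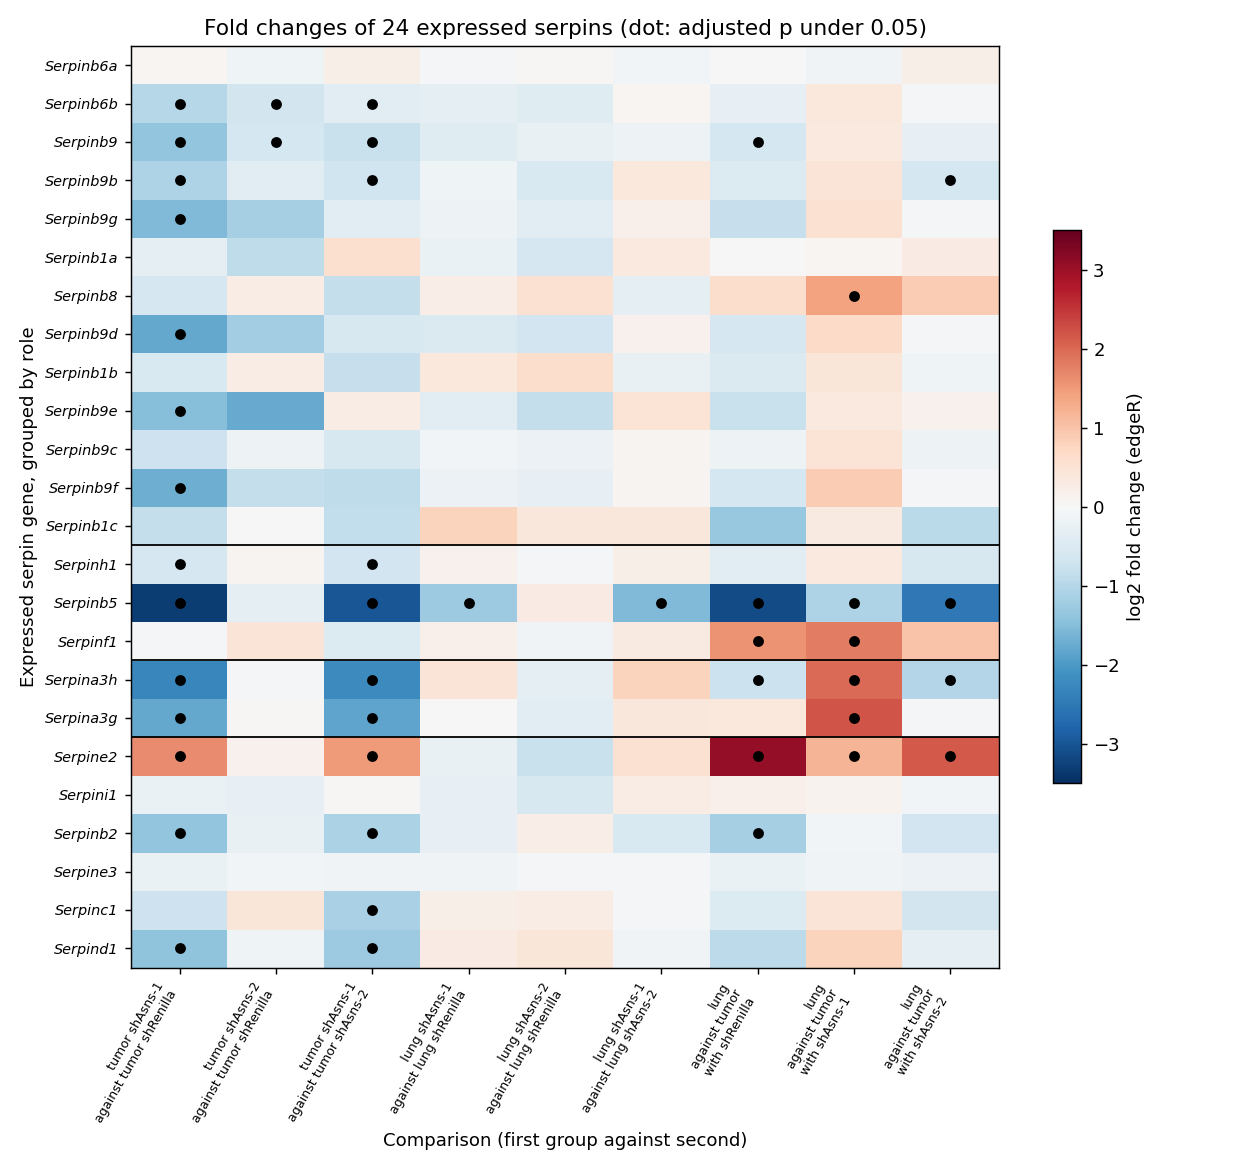
Colour gives the edgeR log2 fold change of 24 expressed serpins (rows, grouped by role) in 9 comparisons (columns, the first group against the second), and a black dot marks an adjusted p under 0.05. The first column has 14 dots, 13 of them on blue cells, the lung hairpin columns have 0 or 1, and the Serpine2 row is red in both comparisons of tumor shAsns-1 and in all 3 of lung against tumor.

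Serpine2 encodes protease nexin 1, a secreted inhibitor of thrombin and the plasminogen activators. Its gene lies at chr1:79794197-79861180 (GRCm38, minus strand). The level in tumor shRenilla libraries A to D was 104, 64.6, 46.3 and 65.5 CPM, and in tumor shAsns-2 107, 68, 62.2 and 78.9. The tumor libraries labelled shAsns-1 had 239, 156, 303 and 178 CPM, each above every other tumor library. In lung it was 579, 674, 467 and 668 CPM in shRenilla, 527, 361, 370.1 and 754 in shAsns-1 and 301, 293, 405 and 396 in shAsns-2. All 12 lung libraries exceeded all 8 tumor libraries of shRenilla and shAsns-2. Values in parentheses are the log2 fold change with its SE and the edgeR adjusted p, and after a library that was left out, the adjusted p without it. The log2 fold change of lung against tumor was 3.09 ± 0.26 (SE) with shRenilla (edgeR adjusted p = 1.53e-09), 2.15 ± 0.25 with shAsns-2 (adjusted p = 5.78e-07) and 1.20 ± 0.24 with shAsns-1 (adjusted p = 0.00304). In tumor, the rise in the libraries labelled shAsns-1 was 1.64 ± 0.25 against shRenilla (adjusted p = 1.28e-05) and 1.48 ± 0.25 against shAsns-2 (adjusted p = 7.38e-05). In lung, Serpine2 was not called with either hairpin: the log2 fold change was -0.25 ± 0.24 with shAsns-1 and -0.78 ± 0.24 with shAsns-2 (adjusted p = 0.637 and 0.405 by edgeR). The lung libraries of shAsns-2 nevertheless all lay below those of shRenilla, and limma with library weights called that difference (adjusted p = 0.0069).

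Serpinb2 encodes PAI-2, an inhibitor of urokinase that stays mostly inside the cell. Its level in tumor shRenilla was 9.31, 7.2, 4.54 and 8.69 CPM, in tumor shAsns-2 8.49, 4.88, 6.1 and 5.97 and in tumor shAsns-1 4.54, 1.7, 2.71 and 2.55. It fell in the libraries labelled shAsns-1 against shRenilla (-1.37 ± 0.28, edgeR adjusted p = 0.000491) and against shAsns-2 (-1.11 ± 0.29, 0.00562), although tumor shAsns-1 A came within rounding of tumor shRenilla C. In lung its range was 2.47 to 4.55 CPM in shRenilla, 2.02 to 3.77 in shAsns-1 and 2.38 to 6.01 in shAsns-2. Lung was lower than tumor with shRenilla (-1.16 ± 0.28, adjusted p = 0.00331), with a slight overlap of the groups at 4.54 and 4.55 CPM.

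Further members of the plasminogen activator and thrombin list were low or were not called. Serpind1 (heparin cofactor II, a thrombin inhibitor) had 0.853, 0.535, 0.501 and 0.841 CPM in tumor shRenilla and 0.229, 0.347, 0.338 and 0.111 in tumor shAsns-1, without overlap (-1.42 ± 0.41, edgeR adjusted p = 0.00899). Against tumor shAsns-2 (0.358, 0.631, 0.763 and 0.557 CPM) it was also lower (-1.27 ± 0.43, 0.028), a call that ended without tumor shAsns-1 A (0.0631) or D (0.109) or tumor shAsns-2 B (0.057) or C (0.0963). Serpinc1 (antithrombin) had 1.3, 0.694, 0.648 and 0.638 CPM in tumor shAsns-1 and 1.31, 1.4, 1.66 and 2.68 in tumor shAsns-2 (-1.14 ± 0.32, 0.00927), a call that ended without tumor shAsns-2 D (0.057). Against tumor shRenilla (2.0, 1.14, 1.4 and 0.806 CPM) Serpinc1 was not called (-0.72 ± 0.32, 0.0773), though it was without tumor shAsns-1 A (0.0234) or tumor shRenilla D (0.0343). Serpini1 (neuroserpin, an inhibitor of tissue plasminogen activator) ranged from 4.3 to 9.76 CPM over all libraries and Serpine3 from 1.33 to 2.39, and neither was called in any comparison.

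**Figure D3:**
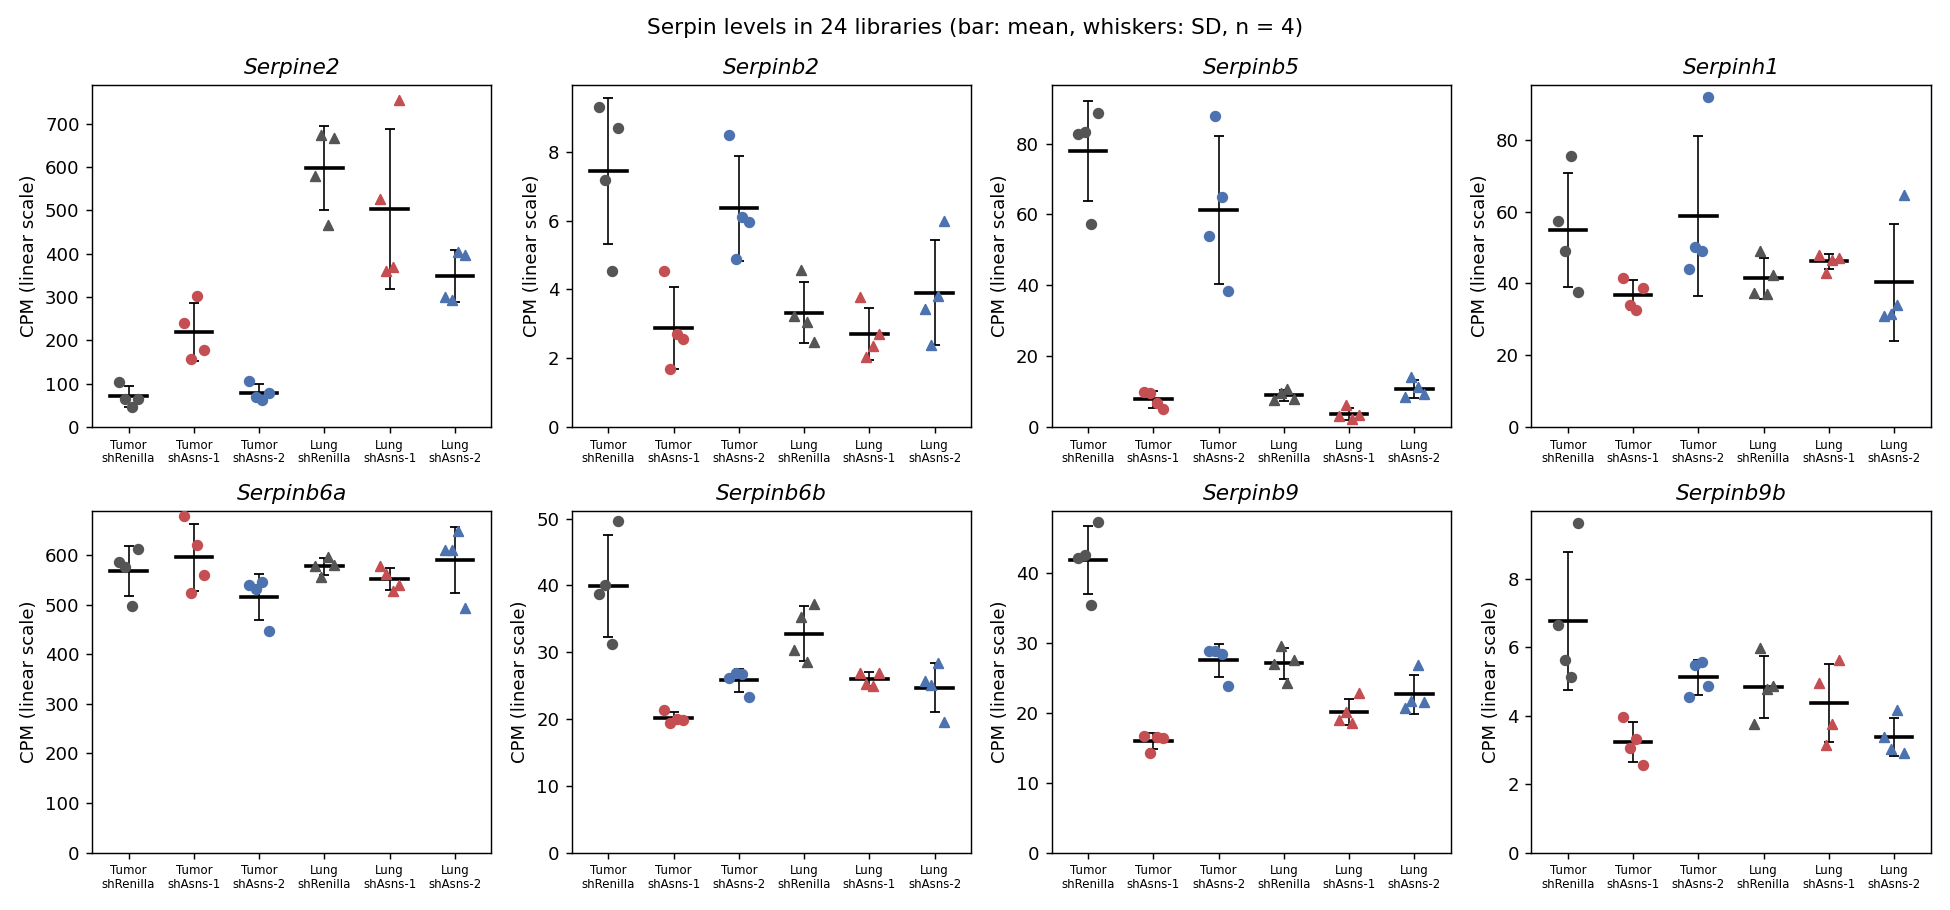
CPM on linear axes from 0 for 8 serpins; each point is 1 library (circles tumor, triangles lung), the bar is the mean and the whiskers the SD of 4 libraries. Serpine2 is high in lung and intermediate in tumor shAsns-1, Serpinb5 is high in tumor shRenilla and tumor shAsns-2 only, Serpinb9 and Serpinb6b are highest in tumor shRenilla, and Serpinb6a stays between 447 and 678 CPM.

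Serpinb5 encodes maspin, a clade b member of mammary and other epithelia that has lost protease inhibition and is known as a suppressor of invasion. It lies at chr1:106861173-106883348 (GRCm38, plus strand) and had the largest fold change of the family between hairpins. Tumor shRenilla had 82.8, 83.4, 57.2 and 88.5 CPM and tumor shAsns-2 53.9, 87.9, 64.8 and 38.4. The tumor libraries labelled shAsns-1 had 9.95, 9.56, 6.62 and 5.08 CPM. In lung the level was 7.5, 9.62, 10.6 and 7.9 CPM in shRenilla, 8.49, 14.1, 11.3 and 9.24 in shAsns-2 and 3.2, 6.19, 2.19 and 3.36 in shAsns-1. So 8 tumor libraries were at 38.4 CPM or more and the other 16 libraries of the series between 2.19 and 14.1. Lung was lower than tumor with shRenilla (-3.13 ± 0.27, edgeR adjusted p = 1.72e-09), with shAsns-2 (-2.51 ± 0.26, 7.12e-08) and with shAsns-1 (-1.07 ± 0.28, 0.0166). The last of these overlapped between groups and ended without tumor shAsns-1 A (0.0673) or B (0.0607) or lung shAsns-1 C (0.0711) or D (0.0632).

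Within tumor, Serpinb5 fell in the libraries labelled shAsns-1 against shRenilla (-3.33 ± 0.27, edgeR adjusted p = 5.59e-10) and against shAsns-2 (-2.99 ± 0.27, 5.05e-09). The tumor shAsns-2 libraries were not called against shRenilla (-0.34 ± 0.24, 0.816). Serpinb5 was also the 1 serpin called between hairpins in lung. In the lung libraries labelled shAsns-1 it was lower than in shRenilla (-1.27 ± 0.28, adjusted p = 0.046) and than in shAsns-2 (-1.55 ± 0.27, 0.00876), with no overlap in either. These were 1 lower and 0 higher of 25 serpins in each comparison, where 0.135% and 0.119% of all genes were lower and 0.0713% and 0.143% higher. The call against shRenilla ended without any 1 of 7 of the 8 libraries, all but lung shAsns-1 B (adjusted p 0.0678 to 0.229), and that against shAsns-2 without lung shAsns-1 D (0.0501) or lung shAsns-2 B (0.0551). When the fit held only the groups compared, the adjusted p values were 0.306 and 0.144. In lung shAsns-2 against lung shRenilla, edgeR called 0 serpins, and 0.0% of all genes lower and 0.0% higher. There 5 of 25 serpins had an unadjusted p under 0.05 by edgeR, where 1068 of 12625 genes did. DESeq2 called 0 serpins and limma with library weights 3 (Serpine2, Serpinb6b and Serpinb9). The shares of all genes called by these methods are not given here.

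Serpinh1, the collagen chaperone HSP47 of the endoplasmic reticulum, had 57.4, 49, 75.5 and 37.7 CPM in tumor shRenilla, 44.1, 50.1, 49.2 and 92 in tumor shAsns-2 and 41.4, 34.1, 32.6 and 38.9 in tumor shAsns-1. The last group overlapped the first and was called slightly lower (-0.58 ± 0.22, edgeR adjusted p = 0.0458), but not without any 1 of 6 of the 8 libraries, all but tumor shAsns-1 A and tumor shRenilla D (adjusted p 0.0556 to 0.186). Against tumor shAsns-2 it was lower without overlap (-0.68 ± 0.22, 0.0249), and not called without tumor shAsns-1 B (0.0644) or C (0.0762) or tumor shAsns-2 D (0.192). Lung libraries had 37.3, 49.2, 37 and 42.4 CPM with shRenilla, 47.9, 43, 46.7 and 47.1 with shAsns-1 and 31, 31.4, 34 and 64.7 with shAsns-2. Tumor shAsns-2 D and lung shAsns-2 D were each the highest of their group for Serpinh1.

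Serpinf1 (PEDF, a secreted antiangiogenic factor) had at most 25 counts per library. The 10 libraries in which it had 10 or more counts were all from lung, so it passed the expression limit through lung alone. Its level was 0.185, 0.249, 0.10 and 0.105 CPM in tumor shRenilla and 0.492, 0.289, 0.394 and 0.745 in lung shRenilla (1.58 ± 0.43, edgeR adjusted p = 0.00826). With shAsns-1 it was 0.152, 0.27, 0.113 and 0.111 CPM in tumor and 0.305, 0.467, 0.535 and 0.888 in lung (1.79 ± 0.42, 0.0088). Neither pair of groups overlapped, but the calls ended without lung shRenilla D (0.0564) and without lung shAsns-1 D (0.0617). As the gene passed the limit through lung, the calls and the lack of overlap are not independent of that limit. The sum of 7 fibroblast genes was likewise higher in lung, at 26.3 to 51.2 CPM against 15.6 to 18.0 with shRenilla and at 34.2 to 69.6 against 23.9 to 32.3 with shAsns-1. Most of this sum was Pdgfra, with a median of 24.7 CPM over all libraries against 0.0137 to 0.773 for the other 6 genes. The part of the sum in the result was not tested.

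The intracellular clade b genes lie mostly in a cluster on chromosome 13, where 12 of the 15 expressed clade b members are found. Serpinb6b (chr13:32965209-32979067), Serpinb9 (chr13:33003250-33017957) and Serpinb9b (chr13:33027416-33041884) are neighbours on the plus strand, and Serpinb6a lies farther along (chr13:33917918-34002794, minus strand, GRCm38). Serpinb9 had 42.1, 42.6, 35.4 and 47.3 CPM in tumor shRenilla, 28.9, 28.8, 28.4 and 23.9 in tumor shAsns-2 and 16.7, 14.2, 16.5 and 16.5 in tumor shAsns-1. The 3 tumor groups did not overlap, and shAsns-2 lay between the others. The log2 fold change was -1.39 ± 0.11 for shAsns-1 against shRenilla (edgeR adjusted p = 4.21e-10), -0.61 ± 0.11 for shAsns-2 against shRenilla (0.0168) and -0.78 ± 0.11 for shAsns-1 against shAsns-2 (8.05e-06). In lung it had 27, 29.6, 24.3 and 27.7 CPM with shRenilla, 19, 20.2, 18.6 and 22.8 with shAsns-1 and 20.8, 21.7, 26.9 and 21.6 with shAsns-2. Lung was below tumor with shRenilla (-0.63 ± 0.11, 0.000106). Serpinb9 is also a gene of cytotoxic lymphocytes. The 6 T and NK cell genes summed to 0.14 to 0.408 CPM in tumor shRenilla, 0.12 to 0.455 in tumor shAsns-2 and 0.231 to 0.534 in tumor shAsns-1. Of the 6, Ptprc, a gene of all leukocytes, had counts in every library and Nkg7 in none, and Cd3e, Cd3d, Cd8a and Gzmb were each at 0.114 CPM or less. Their part in the result was not tested.

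Serpinb6b followed the same order in tumor, with 38.7, 40.1, 31.2 and 49.7 CPM in shRenilla, 26.2, 26.9, 26.8 and 23.3 in shAsns-2 and 21.4, 19.3, 20.0 and 19.9 in shAsns-1. Again no library of 1 tumor group overlapped another. Its log2 fold changes were -0.99 ± 0.12 (edgeR adjusted p = 8.7e-07), -0.63 ± 0.12 (0.0408) and -0.36 ± 0.12 (0.0338) in the same 3 comparisons. Lung libraries had 30.3, 35.2, 28.6 and 37.2 CPM with shRenilla, 26.8, 25.2, 24.9 and 26.9 with shAsns-1 and 25.7, 25, 28.4 and 19.6 with shAsns-2. The tumor shAsns-2 calls were near the threshold. That of Serpinb9 ended when any of 5 libraries was left out, namely D (0.141) and B (0.0521) of tumor shAsns-2 and D (0.115), B (0.0788) and A (0.0552) of tumor shRenilla, and that of Serpinb6b without any 1 of 7 of the 8 libraries, all but tumor shRenilla C (adjusted p 0.0521 to 0.202). When the fit held only the groups compared, the adjusted p was 0.22 for Serpinb9 and 0.298 for Serpinb6b. The Serpinb6b call between the 2 Asns hairpins in tumor likewise ended without any 1 of 7 of the 8 libraries, all but tumor shAsns-2 D (adjusted p 0.0525 to 0.0855).

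Serpinb9b had 6.64, 5.63, 5.14 and 9.63 CPM in tumor shRenilla, 4.54, 5.49, 5.58 and 4.86 in tumor shAsns-2 and 3.97, 3.04, 3.33 and 2.55 in tumor shAsns-1, which lay below both. It fell against shRenilla (-1.07 ± 0.20, edgeR adjusted p = 0.000191) and against shAsns-2 (-0.69 ± 0.21, 0.0149, ended without tumor shAsns-1 D at 0.0638). With shAsns-2, lung (3.39, 3.03, 4.17 and 2.91 CPM) was below tumor (-0.61 ± 0.21, 0.0338), a call that ended without tumor shAsns-2 B, C or D or lung shAsns-2 A, B or D (adjusted p 0.0502 to 0.11). The most abundant serpin, Serpinb6a, was at 497 to 613 CPM in tumor shRenilla, 447 to 547 in tumor shAsns-2 and 523 to 678 in tumor shAsns-1. In lung it was at 556 to 597, 494 to 648 and 529 to 578 CPM with the same hairpins. Its log2 fold change lay between -0.14 and 0.21 over 9 comparisons, with no call.

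Serpinb9c, Serpinb9d, Serpinb9e, Serpinb9f and Serpinb9g were low, and their summed counts were 2.95 to 10.3% of those of Serpinb9 itself. Serpinb9g had 0.89, 0.891, 0.968 and 1.37 CPM in tumor shRenilla and 0.686, 0.193, 0.366 and 0.194 in tumor shAsns-1 (-1.54 ± 0.39, edgeR adjusted p = 0.00335). Serpinb9d had 0.482, 0.784, 0.634 and 0.806 and 0.267, 0.116, 0.197 and 0.194 CPM in the same groups (-1.78 ± 0.44, 0.00274). Neither overlapped between the groups. Serpinb9f had 0.371, 0.463, 0.234 and 0.666 and 0.114, 0.154, 0.0845 and 0.167 CPM (-1.71 ± 0.48, 0.00763), and Serpinb9e 0.223, 0.784, 0.501 and 0.806 and 0.305, 0.154, 0.197 and 0.167 CPM (-1.49 ± 0.38, 0.0036), the latter with overlap. These 4 are the near copies between which reads can pass. Serpinb9e had 10 or more counts in 6 libraries, tumor shRenilla B, C and D among them. It met the limit of 4 libraries only with that group, so its call is not independent of the limit. Serpinb9c and the 3 Serpinb1 genes, inhibitors of neutrophil proteases, were called in no comparison and reached at most 0.898 CPM. Serpinb8, an inhibitor of furin on chromosome 1, had 0.343, 0.116, 0.197 and 0.111 CPM in tumor shAsns-1 and 0.609, 0.506, 0.401 and 0.54 in lung shAsns-1 (1.42 ± 0.41, 0.029), and that call ended without any 1 of 6 of the 8 libraries (adjusted p 0.0548 to 0.106). Of 14 libraries with 10 or more Serpinb8 counts, only tumor shRenilla B (12 counts) and tumor shAsns-2 C (16 counts) were from tumor. Serpinb8 thus passed the expression limit through lung, and its call is not independent of that limit.

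Both expressed Serpina3 members lie on chromosome 12 and are low, and Serpina3h is annotated as a transcribed pseudogene. Serpina3h (chr12:104247905-104253669) had 1.15, 1.32, 0.968 and 2.31 CPM in tumor shRenilla, 1.08, 1.26, 1.66 and 1.42 in tumor shAsns-2 and 0.229, 0.308, 0.366 and 0.25 in tumor shAsns-1, where it was lowest without overlap (-2.29 ± 0.31 against shRenilla, edgeR adjusted p = 2.79e-06, and -2.24 ± 0.32 against shAsns-2, 8.46e-06). Its lung levels were 0.72, 0.706, 0.752 and 1.19 CPM with shRenilla, 1.48, 0.778, 1.44 and 0.888 with shAsns-1 and 0.602, 0.619, 0.651 and 0.853 with shAsns-2. Lung was above tumor with shAsns-1 (1.98 ± 0.31, 0.000298) and below it with shAsns-2 (-1.03 ± 0.28, 0.0107). With shRenilla it was also below (-0.76 ± 0.27, 0.0437), but with overlap, and the call ended without tumor shRenilla B (0.0573) or D (0.252) or lung shRenilla A (0.099), B (0.0974) or C (0.094). Serpina3g (chr12:104236245-104241939) was at 0.148, 0.641, 0.501 and 0.876 CPM in tumor shRenilla, 0.717, 0.686, 0.451 and 0.455 in tumor shAsns-2 and 0.191, 0.154, 0.113 and 0.167 in tumor shAsns-1. Its fall was -1.79 ± 0.48 against shRenilla (0.0055), with overlap, and -1.84 ± 0.50 against shAsns-2 (0.00738), without. In lung shAsns-1 it was at 0.495, 0.506, 0.883 and 0.965 CPM, above tumor shAsns-1 (2.19 ± 0.47, 0.00439).

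Lung was compared with tumor under each hairpin label. With shRenilla, 2 of 25 serpins were higher in lung than in tumor and 5 lower, where 12.0% of all genes were higher and 9.82% lower. With shAsns-1, 6 were higher and 1 lower, where 6.0% and 2.54% of all genes were. With shAsns-2, 1 was higher and 3 lower, where 10.1% and 10.9% of all genes were. Serpine2 was higher in lung and Serpinb5 lower under all 3 labels. Serpinf1, counted as higher with shRenilla and with shAsns-1, passed the expression limit through lung alone. Serpinb8, counted as higher with shAsns-1, also needed the lung libraries to pass it. Single libraries weighed on these counts: without lung shAsns-2 D, 8 serpins were called with shAsns-2, among them Serpinh1 (0.0023), Serpinb2 (0.0167) and Serpinc1 (0.0223), and without lung shAsns-1 D, 3 were called with shAsns-1. The neutrophil sum was higher in lung than in tumor under each label without overlap (2.36 to 3.33 CPM in tumor and 7.65 to 10.2 CPM in lung with shAsns-1), nearly all of it S100a8, with S100a9 and Elane at or near 0 in every library; its part in these results was not tested. Serpin genes together held 0.101 to 0.149% of the counts in lung libraries and 0.0786 to 0.0996% in tumor libraries, and Serpinb6a and Serpine2 made up most of this share.

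The test of the difference between sites asks whether the effect of a hairpin label against shRenilla was the same in lung and tumor. For shAsns-1 it called 8 of 25 serpins with a more positive log2 fold change in lung than in tumor and 1 with a more negative one, where 6.96% and 7.27% of all genes were called. A more positive value can be a smaller fall, as it was for Serpinb5 and Serpinb9. Serpinb5 differed by 2.06 ± 0.38 (edgeR adjusted p = 0.000455), Serpinb9 by 0.96 ± 0.15 (0.000113) and Serpinb6b by 0.65 ± 0.17 (0.0129). Serpine2 differed the other way (-1.89 ± 0.34, 0.000432), from 1.64 in tumor to -0.25 in lung. For shAsns-2, 0 serpins were called, and 0.0% of all genes higher and 0.0% lower. There 2 of 25 serpins, Serpine2 and Serpinb9, had an unadjusted p under 0.05 by edgeR, where 599 of 12625 genes did. Neither DESeq2 nor limma with library weights called a serpin.

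A list of 33 proteases that serpins inhibit, with their receptors and cofactors, had 20 tested members. In tumor shAsns-1 against tumor shRenilla 7 of the 20 fell and 0 rose, where 17.7% of all genes were lower and 16.2% higher. Against tumor shAsns-2 8 fell and 0 rose, where 15.0% of all genes were lower and 12.1% higher. Plau (urokinase, a target of PAI-2 and protease nexin 1) was at 62.5 to 75.5 CPM in tumor shRenilla, 52.1 to 80.5 in tumor shAsns-2 and 21.5 to 33.7 in tumor shAsns-1 (-1.47 ± 0.18 against shRenilla, edgeR adjusted p = 6.02e-07). St14 (matriptase, a membrane protease of epithelia) was at 8.34 to 14.7, 9.02 to 18.9 and 2.75 to 4.66 CPM in the same order (-1.75 ± 0.22, 1.08e-06). Procr (the endothelial protein C receptor) was at 67.5 to 110.4, 64.1 to 128 and 34.8 to 37.9 CPM (-1.31 ± 0.19, 1.11e-05), and C1ra (complement C1r, a target of Serping1) at 0.705 to 0.962, 0.589 to 1.07 and 0.116 to 0.361 CPM (-1.57 ± 0.33, 0.000569). All 4 had no overlap between tumor shAsns-1 and tumor shRenilla. They were named for the size of their called fold changes, so the lack of overlap is no separate result. Tumor shAsns-2 against tumor shRenilla called 0 of the 20, where 0.0396% of all genes were higher and 0.0238% lower. All 3 hairpin comparisons in lung also called 0, where at most 0.143% of all genes were called in either direction. These counts are near the shares of all genes.

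Between sites the partners were called 3 higher and 3 lower with shRenilla, 6 higher and 0 lower with shAsns-1, and 2 higher and 5 lower with shAsns-2, of 20 each. Of all genes, 12.0% were higher and 9.82% lower with shRenilla, 6.0% and 2.54% with shAsns-1 and 10.1% and 10.9% with shAsns-2, so the counts with shRenilla and the higher count with shAsns-2 are near the share of all genes. Plat (tissue plasminogen activator, inhibited by protease nexin 1 and neuroserpin) was higher in lung with shRenilla, at 6.45 to 8.92 against 3.96 to 5.19 CPM (0.81 ± 0.21, edgeR adjusted p = 0.00572), and with shAsns-1, at 6.58 to 12.9 against 3.24 to 4.28 CPM (1.33 ± 0.21, 0.000271). Thbd (thrombomodulin, the thrombin cofactor) had 0 counts in all 4 tumor libraries labelled shAsns-1, which allows up to 0.0243 CPM over the group (3 counts), and 0.545 to 2.63 CPM in lung shAsns-1. It was thus at least 52.2-fold higher in lung (edgeR adjusted p = 8.69e-06). With shRenilla it was at 0.568 to 0.715 CPM in lung and at most 0.111 CPM in tumor (3.69 ± 0.68, 0.000306).

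Promoters were looked at because Serpinb5, Serpine2 and the chromosome 13 neighbours moved in these data. RefSeq promoters (GRCm38.p6, 250 bases before to 50 after the start) were found for 22 of the 25 expressed serpins, 26 sequences in all. Those of 5 members are printed from 5′ to 3′ with matches to any of 4 motifs in capitals. Both strands were searched and overlaps allowed. The motif TGACTCA is the AP-1 site of the Fos and Jun factors. The E-box bound by the ZEB and SNAI repressors was searched as CACCTG. A GC box, which Sp1 binds, was searched as GGGCGG. The core promoter element known as the TATA box was searched as TATAAA.
Serpinb5 (chr1:106860925-106861224, plus strand): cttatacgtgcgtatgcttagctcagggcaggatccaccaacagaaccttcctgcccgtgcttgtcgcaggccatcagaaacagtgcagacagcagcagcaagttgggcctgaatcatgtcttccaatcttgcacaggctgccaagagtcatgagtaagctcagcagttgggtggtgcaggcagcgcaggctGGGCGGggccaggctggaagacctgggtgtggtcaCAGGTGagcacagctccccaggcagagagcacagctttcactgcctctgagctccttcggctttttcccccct
Serpine2 (chr1:79858616-79858915, minus strand): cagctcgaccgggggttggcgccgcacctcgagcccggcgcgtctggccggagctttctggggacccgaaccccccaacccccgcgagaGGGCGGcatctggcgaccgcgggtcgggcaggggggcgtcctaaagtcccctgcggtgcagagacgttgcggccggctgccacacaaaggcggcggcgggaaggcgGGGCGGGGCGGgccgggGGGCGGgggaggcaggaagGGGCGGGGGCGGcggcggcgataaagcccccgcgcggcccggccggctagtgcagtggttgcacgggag
Serpinb6b (chr13:32965011-32965310, plus strand): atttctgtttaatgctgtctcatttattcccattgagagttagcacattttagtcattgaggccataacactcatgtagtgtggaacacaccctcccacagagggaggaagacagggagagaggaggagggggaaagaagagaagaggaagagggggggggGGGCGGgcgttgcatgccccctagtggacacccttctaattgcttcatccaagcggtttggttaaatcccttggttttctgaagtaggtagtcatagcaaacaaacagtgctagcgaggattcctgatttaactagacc
Serpinb9 (chr13:33004291-33004590, plus strand): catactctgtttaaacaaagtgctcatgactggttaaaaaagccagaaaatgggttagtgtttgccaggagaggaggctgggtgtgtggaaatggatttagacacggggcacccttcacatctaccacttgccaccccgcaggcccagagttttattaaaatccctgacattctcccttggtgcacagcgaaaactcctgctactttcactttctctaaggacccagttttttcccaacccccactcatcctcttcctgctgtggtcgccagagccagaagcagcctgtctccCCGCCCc
Serpinb9b (chr13:33027164-33027463, plus strand): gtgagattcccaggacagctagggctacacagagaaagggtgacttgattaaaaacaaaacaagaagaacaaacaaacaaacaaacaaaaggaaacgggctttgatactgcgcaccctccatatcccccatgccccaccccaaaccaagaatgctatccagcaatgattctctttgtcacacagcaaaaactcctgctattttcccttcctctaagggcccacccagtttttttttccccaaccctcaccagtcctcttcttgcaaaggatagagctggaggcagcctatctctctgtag
The Serpine2 window holds 6 GC boxes, some of them overlapping, and the Serpinb5 window 1 GC box and 1 CACCTG E-box. The RefSeq windows of Serpine2 and Serpinb9 lie wholly inside the GENCODE gene spans given above, and the outer ends of those spans were not searched. Serpinb6b and Serpinb9 hold 1 GC box each, and Serpinb9b holds none of the 4 motifs. Among 32851 RefSeq promoters, 35.7% hold a GC box, 20.2% the E-box, 13.6% the TATA box and 5.2% the AP-1 motif. Among the 26 promoters of expressed serpins the numbers were 6, 6, 3 and 1. These matches describe the letters of the windows and show no binding.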

How the data were processed

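RNA was sequenced from 24 libraries after Trizol extraction and NuGEN Ovation RNAseq V2 preparation. The authors deposited unnormalised counts by gene symbol, and the submitters' processing notes name Bowtie2, HTSeq and mm10, with no versions. The annotation and filters are not given in the sources used here. Groups came from the sample titles. Counts were tested with edgeR 4.0.16 (R 4.3.3): TMM scaling, filterByExpr by group (12625 genes), a robust quasi-likelihood fit over all 24 libraries with 1 mean per group, and Benjamini-Hochberg adjustment over all genes, called at 0.05. Each standard error was obtained by dividing the size of the log2 fold change by the square root of its F statistic. CPM used TMM-scaled library sizes. Mean log2 CPM, principal components and log2 distances between libraries used a prior count of 2. Median log2 fold changes are medians of the edgeR values. The fit was tested on simulated counts. The biological coefficient of variation was 14.9%. No library duplicated another (lowest chi-square per degree of freedom 4.74 over 36 pairs within groups).

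Positions, exon lengths and coding sequences came from GENCODE M21 (GRCm38) and promoters from RefSeq (GRCm38.p6). Members, gene lists and tests were chosen with earlier results of these data known. Values in every library were given for members called in any of 9 two-group comparisons or with a mean log2 CPM of at least 3 (for low members, in the groups compared). The values of 1 expressed member, which is included in the counts of members, are not reported here. The 6 partner genes with the largest called changes were given by their ranges. Alternatives were limma 3.58.1 with library weights, DESeq2 1.42.0, edgeR with size factors from DESeq2, no filter, a replicate block, only the compared groups, 2 distant libraries left out, and each library left out in turn. An interval or limit for a count of 0 covers counting error only.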

Additional observations from a re-analysis of the deposited data

Results flagged for a closer look

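Among 26 genes (24 expressed serpins, Serpina9 and Serping1) in 6 groups, 156 sets of 4 libraries were searched for 1 library far from the other 3, by Dixon's criterion at 95%. Chance alone gives about 1 in 20, and 14 were found. Tumor shAsns-2 D and lung shAsns-2 D together gave 4 of them. The sample titles do not say whether a letter pairs libraries. Of the 36 same-letter correlations given below, that of tumor shAsns-2 D with lung shAsns-2 D was the highest (0.347). Serpinh1, the collagen chaperone, was at 92.0 CPM in tumor shAsns-2 D against 44.1 to 50.1 in the other 3, and at 64.7 in lung shAsns-2 D against 31.0 to 34.0. In tumor shAsns-2 D, Serpinb6a was low at 447.0 CPM (531 to 547 in the others) and Serpinb9 low at 23.9 (28.4 to 28.9). Serpinb9 was also low in tumor shAsns-1 B at 14.2 CPM (16.5 to 16.7) and high in lung shAsns-2 C at 26.9 (20.8 to 21.7).

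The rest were low-count members. Serpina9, below the expression limit elsewhere, had 50 counts (1.63 CPM) in lung shAsns-2 C against 0.0619 to 0.285 CPM, and 1 count (0.0385 CPM) in tumor shAsns-1 B against 0.152 to 0.169. Serpina3h was at 1.19 CPM in lung shRenilla D, Serpinc1 at 1.3 in tumor shAsns-1 A, Serpinb1a at 0.589 in tumor shAsns-2 C and Serpinb1c at 0.499 in tumor shRenilla B, each the highest of its group. Serpinb9g was highest in tumor shAsns-2 C (0.763 CPM) and in tumor shRenilla D (1.37 CPM), where reads of near copies may be shared.

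The effect of the label shAsns-1 against shRenilla differed between lung and tumor for several serpins (log2 difference, lung minus tumor, by edgeR). Beside Serpinb5 (2.06), Serpinb9 (0.96), Serpinb6b (0.65) and Serpine2 (-1.89), these were Serpina3h (2.74 ± 0.41, adjusted p = 5.26e-05), Serpinb9b (0.92 ± 0.28, adjusted p = 0.0292), Serpina3g (1.81 ± 0.61, adjusted p = 0.0471) and Serpind1 (1.71 ± 0.58, adjusted p = 0.0486). The calls of Serpinb9b, Serpina3g and Serpind1 ended without several single libraries, with adjusted p up to 0.076, 0.109 and 0.162. That of Serpina3g also ended with limma (adjusted p = 0.0834), and in edgeR with DESeq2 size factors (0.05), only the compared groups (0.0672) or no distant libraries (0.065). That of Serpind1 ended with DESeq2 (0.0518), and in edgeR with DESeq2 size factors (0.0524), no filter (0.0596) or only the compared groups (0.0556).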

How the results depend on the processing

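Of 58 calls of serpins over the 11 comparisons and differences, 38 were kept under every alternative in which the gene was tested. The counts that moved by over 1.5 times were as follows, and the cause was not tested. The shares of all genes called under the alternatives are not given here. Tumor shAsns-2 against tumor shRenilla went from 2 called serpins to 0 with the replicate block and 0 with only the compared groups. Lung shAsns-1 against lung shRenilla (1) gave 2 with DESeq2, 3 with limma, and 0 with no filter, with only the compared groups, or without the 2 distant lung libraries. Lung shAsns-2 against lung shRenilla (0) gave 3 with limma. Lung shAsns-1 against lung shAsns-2 (1) gave 4 with limma, and 0 with no filter or only the compared groups. Lung against tumor gave 14 with limma for shRenilla (7), and for shAsns-2 (4) 11 with limma and 9 without the 2 distant lung libraries. With each library left out in turn, the counts ran from 0 to 2 for tumor shAsns-2 and from 14 to 16 for tumor shAsns-1 against shRenilla, and from 9 to 11 between the Asns hairpins in tumor. In lung they ran from 0 to 1 for shAsns-1, stayed at 0 for shAsns-2 and ran from 0 to 2 between the Asns hairpins. For lung against tumor they ran from 6 to 9 with shRenilla, 3 to 7 with shAsns-1 (lowest without lung shAsns-1 D) and 3 to 8 with shAsns-2 (8 without lung shAsns-2 D). For the difference between sites they ran from 6 to 9 with shAsns-1 and stayed at 0 with shAsns-2.

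Over the series the letters A to D did not behave as pairs. Same-letter deviations correlated at -0.41 to 0.35, and in 8 of 36 checks (4 letters in each of 9 comparisons) a library correlated best with its own letter. The highest value was between tumor shAsns-2 D and lung shAsns-2 D, so a pairing of single libraries cannot be told from this. The block moved no other count by over 1.5 times. Depth limits the members below about 1 CPM, most of which had under 50 counts in every library.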
